A study of Mus musculus with 8 samples.

Results

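The REG lectins and acute-phase defence proteins of the mucosa were followed through 9 genes chosen by name out of the 17353 genes of the deposited tables: the lectin genes Reg1, Reg3a, Reg3b, Reg3g and Reg4, the serum amyloid A genes Saa1, Saa2 and Saa3, and Lcn2. Mucosal RNA of the colon was sequenced on day 7 from 8 C57BL/6J mice, all male, wild type and kept under SPF conditions, with 2 animals in each of 4 groups. The first group had colitis from 3% dextran sulfate sodium (DSS), a sulfated polysaccharide that injures the colonic lining when given in the drinking water, and received Kuiyangling enemas at 10 g/kg. The second had DSS colitis and mesalazine enemas at 50 mg/kg (mesalazine is an aminosalicylate used against ulcerative colitis). The third, the DSS model, had DSS colitis and saline enemas, and the control mice received saline enemas without DSS. Each enema held 0.2 ml, and no other genotype, allele or agent is named in the labels. The labels give no age, and nothing says how many animals the groups held beyond those sequenced. The study is about inflammation and neutrophil extracellular traps in the colitic colon under Kuiyangling.

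REG3 proteins are small secreted C-type lectins that gut epithelial cells release into the mucus, where mouse REG3G binds peptidoglycan and kills Gram-positive bacteria and REG3B acts mainly against Gram-negative ones. Their genes are induced in the intestine by IL-22 through STAT3 and by bacterial signals through MyD88, and they are among the genes best known to rise in DSS colitis. Serum amyloid A proteins and LCN2, which withholds iron from bacteria by binding their siderophores, belong to the acute-phase response that IL-1, IL-6, IL-17 and IL-22 drive through C/EBP, NF-kB and STAT3 factors.

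All 9 genes were detected in all 8 libraries and passed the filter on low counts that left 13381 genes for testing. Each library held between 15560946 and 17843715 counts over 15217 to 15689 detected genes. Epithelium was present in every library, and the 10 pan-epithelial markers (Epcam, Cdh1 and others) were all detected. They summed to 22675 and 19901 CPM (counts brought to a common library size by the TMM method) in Kuiyangling libraries. The sums were 30577 and 20696 CPM in mesalazine libraries, 28957 and 25909 CPM in DSS model libraries and 19906 and 22998 CPM in control libraries. Ribosomal protein genes took 12.7% of the counts of mesalazine replicate 1 and 3.35% to 6.68% of those of the other 7 libraries. In bulk mucosa, more cells of a type and more RNA per cell cannot be told apart.

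The start regions of 6 of the genes are printed to show what was searched and how the members differ at their own promoters. They come from RefSeq (GRCm38.p6), run 5′ to 3′ on the gene's strand from 250 bases before to 50 bases after its start, and matched all 9 genes by symbol. Capitals mark a match to the STAT motif TTCNNNGAA in Reg3b and to the C/EBP motif TTGCNNAA, read on either strand, in the others. Reg3b (chr6:78370635-78370934, plus strand) and Reg3g (chr6:78468825-78469124, minus strand) are shown as the REG3 pair with the highest levels. Saa1 (chr7:46742931-46743230, minus strand), Saa3 (chr7:46715627-46715926, minus strand) and Lcn2 (chr2:32387690-32387989, minus strand) are shown as acute-phase genes with a C/EBP match. Reg4 (chr3:98221906-98222205, plus strand) is shown as the one member that was higher in mesalazine replicate 2 than in replicate 1.
Reg3b: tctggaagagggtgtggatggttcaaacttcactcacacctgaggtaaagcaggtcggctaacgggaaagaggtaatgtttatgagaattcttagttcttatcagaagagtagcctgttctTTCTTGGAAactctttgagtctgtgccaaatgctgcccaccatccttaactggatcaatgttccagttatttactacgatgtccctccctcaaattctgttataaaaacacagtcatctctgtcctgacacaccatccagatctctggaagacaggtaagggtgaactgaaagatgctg
Reg3g: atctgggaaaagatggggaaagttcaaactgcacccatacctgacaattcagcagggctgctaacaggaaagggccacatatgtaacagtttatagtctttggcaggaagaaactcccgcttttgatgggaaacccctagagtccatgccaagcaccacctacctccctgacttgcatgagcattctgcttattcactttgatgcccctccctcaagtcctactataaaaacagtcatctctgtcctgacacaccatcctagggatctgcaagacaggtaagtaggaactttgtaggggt
Saa1: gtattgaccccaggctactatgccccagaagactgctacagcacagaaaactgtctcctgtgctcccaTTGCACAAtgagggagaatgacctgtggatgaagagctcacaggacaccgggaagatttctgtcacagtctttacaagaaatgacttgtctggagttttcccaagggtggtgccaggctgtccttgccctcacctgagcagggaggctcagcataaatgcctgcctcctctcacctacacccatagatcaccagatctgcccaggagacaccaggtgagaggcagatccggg
Saa3: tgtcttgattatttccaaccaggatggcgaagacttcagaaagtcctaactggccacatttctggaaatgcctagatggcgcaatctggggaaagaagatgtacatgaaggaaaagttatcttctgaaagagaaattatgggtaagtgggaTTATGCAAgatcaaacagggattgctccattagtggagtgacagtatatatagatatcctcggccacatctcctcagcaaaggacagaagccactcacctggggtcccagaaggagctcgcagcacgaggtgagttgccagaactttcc
Lcn2: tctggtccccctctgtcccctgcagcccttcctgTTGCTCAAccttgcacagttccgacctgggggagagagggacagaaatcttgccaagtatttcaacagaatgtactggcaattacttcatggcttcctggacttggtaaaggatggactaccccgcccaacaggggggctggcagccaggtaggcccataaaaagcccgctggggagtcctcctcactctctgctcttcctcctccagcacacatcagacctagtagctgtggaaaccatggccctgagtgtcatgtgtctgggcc
Reg4: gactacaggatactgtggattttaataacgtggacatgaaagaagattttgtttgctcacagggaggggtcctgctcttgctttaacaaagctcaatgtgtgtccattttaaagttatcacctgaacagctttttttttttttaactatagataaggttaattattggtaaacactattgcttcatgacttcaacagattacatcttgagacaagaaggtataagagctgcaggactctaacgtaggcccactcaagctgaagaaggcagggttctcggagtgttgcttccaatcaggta

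The STAT motif was found in the window of 1 of the 9 genes, Reg3b, and in 8.30% of all 32851 promoters of the same length. The C/EBP motif was found in 5 of 9 (Reg3a, Saa1, Saa2, Saa3 and Lcn2), and in 10.8% of all promoters. The NF-kB motif (GGG, any 2 bases, then TTTCC) was found in 0 of 9 and in 1.63% of all promoters. The Reg3b and Reg3g windows matched at 68.1% of 304 aligned columns, and those of Saa1 and Saa2 at 95.3% of 301. A match describes letters, not a bound site.

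**Figure D1:**
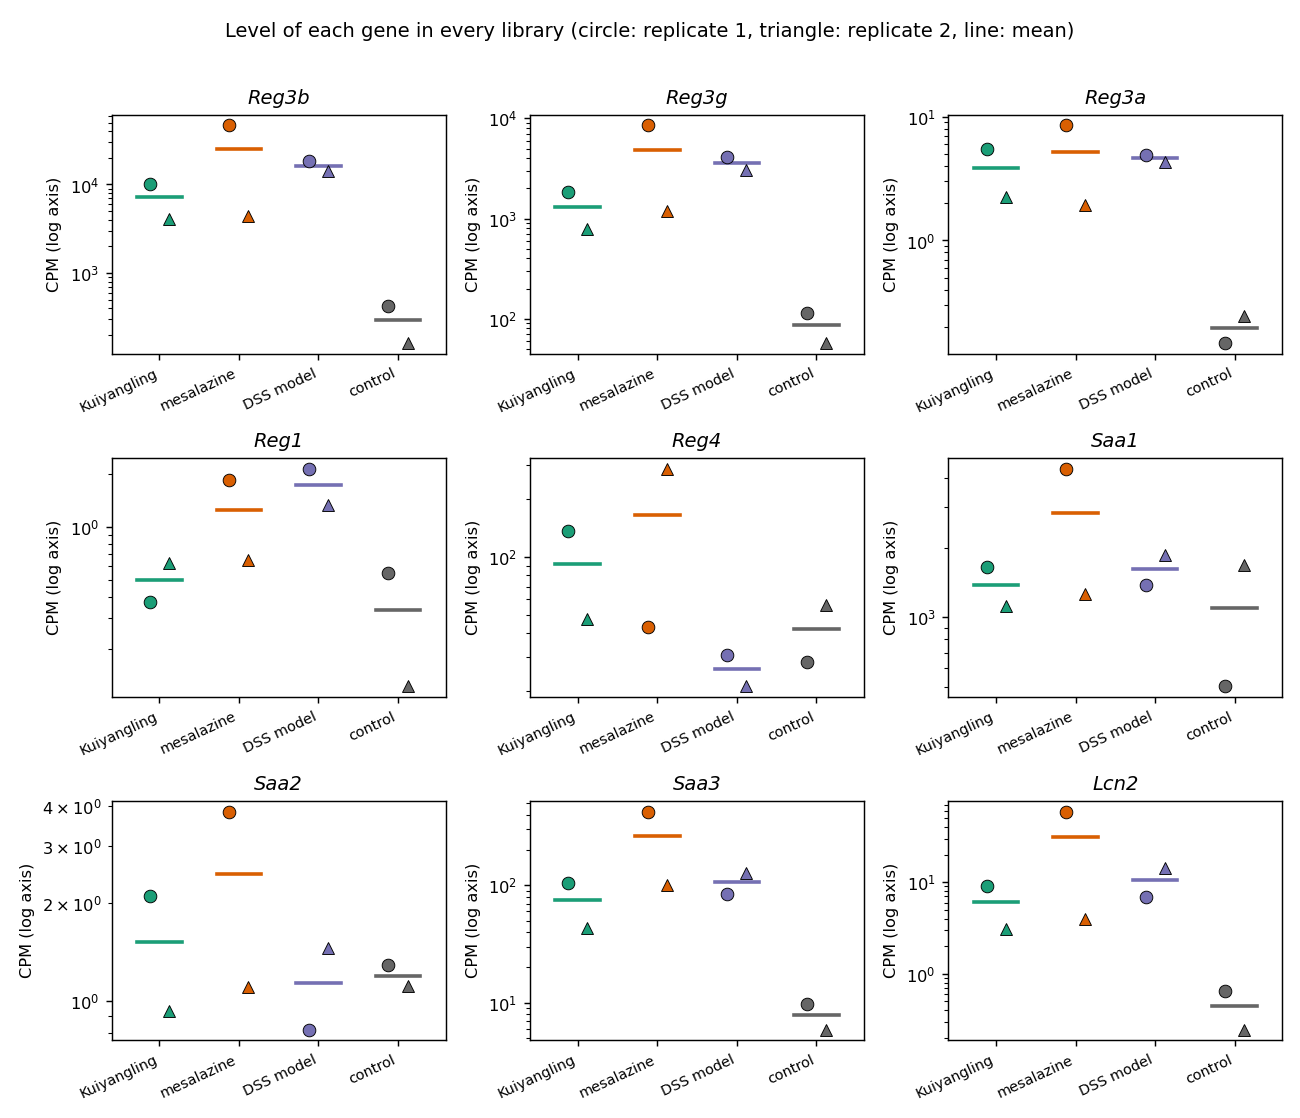
CPM (log axis, each panel with its own range) of the 9 genes in every library, with the Kuiyangling, mesalazine, DSS model and control groups from left to right, replicate 1 as a circle, replicate 2 as a triangle and the mean of the 2 animals as a line. Reg3b, Reg3g, Reg3a, Saa3 and Lcn2 lay above both controls in all 6 libraries of mice given DSS. Reg1, Reg4, Saa1 and Saa2 did not. The mesalazine circle was the highest point for all members except Reg1 and Reg4.

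The REG3 lectins and Saa3 were the members that rose when all 3 DSS groups were averaged, and the largest of these changes was in Reg3b. Averaged over the Kuiyangling, mesalazine and DSS model groups against control, Reg3b rose by 5.60 ± 1.03 on the log2 scale (SE, edgeR's quasi-likelihood test, adjusted p = 0.0274), Reg3g by 5.05 ± 0.85 (adjusted p = 0.0212), Reg3a by 4.49 ± 0.81 (adjusted p = 0.0249) and Saa3 by 4.01 ± 0.65 (adjusted p = 0.0180). These 4 of 9 members compare with 2.19% of all tested genes called in this comparison (0.844% higher and 1.35% lower). At an unadjusted p under 0.05 there were 5 members, where 20.6% of all tested genes lay. Lcn2 had an estimate of 4.76 ± 1.13 and did not pass (adjusted p = 0.0616). Without control replicate 2 or without DSS model replicate 2, 0 of the 4 calls were left, and 2 were left without DSS model replicate 1. In all 6 DSS libraries, 5 of 9 members lay above both controls, against 14.3% of tested genes, and none lay below both, against 11.3%.

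Reg3b had 10218 and 4073 CPM in Kuiyangling libraries, 46439 and 4461 CPM in mesalazine libraries, 18187 and 14109 CPM in DSS model libraries, and 428 and 162 CPM in control libraries. Every DSS library lay above both controls, the lowest being Kuiyangling replicate 2. The 2 animals averaged 7145 ± 4345 CPM in Kuiyangling, 25450 ± 29683 CPM in mesalazine, 16148 ± 2883 CPM in the DSS model and 295 ± 188 CPM in control mice (SD, n = 2 each). Per transcript length (FPKM), Reg3b was the most abundant of all genes in both DSS model libraries and in mesalazine replicate 1, ranked 2 and 3 in the Kuiyangling libraries and 4 in mesalazine replicate 2, and ranked 102 and 349 in the controls. It alone held 1.03% and 0.445% of all counts in Kuiyangling libraries, 3.87% and 0.466% in mesalazine libraries, 1.71% and 1.37% in DSS model libraries, and 0.0484% and 0.0164% in control libraries.

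Reg3g, the Gram-positive killing lectin, had 1822 and 795 CPM in Kuiyangling libraries, 8502 and 1177 CPM in mesalazine libraries, 4142 and 3085 CPM in DSS model libraries, and 114 and 57.4 CPM in control libraries. The 6 DSS libraries stood in the same order for Reg3g as for Reg3b, with mesalazine replicate 1 highest and Kuiyangling replicate 2 lowest. The FPKM level of Reg3b over that of Reg3g was 5.71 and 5.21 in Kuiyangling libraries, 5.56 and 3.86 in mesalazine libraries, 4.47 and 4.66 in DSS model libraries, and 3.82 and 2.88 in control libraries. The pair shares 77.9% of 553 aligned transcript columns (GENCODE vM21) but no run of 50 identical bases, and neither did any other pair of REG members.

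Reg3a, a further REG3 lectin gene, was rare, with 5.45 and 2.23 CPM in Kuiyangling libraries, 8.49 and 1.93 CPM in mesalazine libraries, 4.91 and 4.31 CPM in DSS model libraries, and 0.149 and 0.247 CPM in control libraries. The control values rest on 3 and 4 counts. The summed counts of the DSS model, scaled for library size, were 24.0 times those of control (exact 95% counting interval 11.4 to 60.8, counting error only). Per length, Reg3b exceeded Reg3a 726-fold to 6030-fold across the 8 libraries.

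Reg1, the regenerating protein best known from pancreatic acinar cells, had 0.371 and 0.623 CPM in Kuiyangling libraries, 1.84 and 0.642 CPM in mesalazine libraries, 2.14 and 1.33 CPM in DSS model libraries, and 0.545 and 0.123 CPM in control libraries. The DSS model and mesalazine libraries lay above both controls, and the Kuiyangling libraries overlapped them. The estimates against control were 0.53 ± 0.84 for Kuiyangling (adjusted p = 0.894), 1.81 ± 0.81 for mesalazine (adjusted p = 0.248) and 2.31 ± 0.80 for the DSS model (SE, edgeR, adjusted p = 0.252). Acinar markers other than Cela1 and Clps, a subset of the acinar list taken after the values were seen, summed to 1.49 and 2.02 CPM in Kuiyangling libraries, 5.10 and 2.98 CPM in mesalazine libraries, 1.13 and 4.97 CPM in DSS model libraries, and 18.2 and 5.12 CPM in control libraries. All 14 were detected in control replicate 1. The library with the highest Reg1, DSS model replicate 1, had the lowest sum of this subset and 11 of these markers at 0. All 16 measured acinar markers summed to 61.3 and 73.4 CPM in Kuiyangling libraries and 114 and 61.7 CPM in mesalazine libraries. They summed to 88.0 and 99.3 CPM in DSS model libraries and 100 and 137 CPM in control libraries, so on the whole list that library was not the lowest. The source of Reg1 was not tested.

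Reg4, a REG gene of deep crypt secretory and enteroendocrine cells, did not follow the others. It had 137 and 47.4 CPM in Kuiyangling libraries, 42.9 and 287 CPM in mesalazine libraries, 30.8 and 21.2 CPM in DSS model libraries, and 28.3 and 56.1 CPM in control libraries. The DSS model overlapped the controls, both Kuiyangling and both mesalazine libraries lay above both DSS model libraries, and mesalazine replicate 2 was the highest, where 8 of 9 members were higher in mesalazine replicate 1. The estimates were 1.82 ± 0.77 for Kuiyangling against the DSS model (adjusted p = 0.996) and 2.66 ± 0.80 for mesalazine against the DSS model (SE, edgeR, adjusted p = 0.599). Without mesalazine replicate 2 the second of these gave 0.72, and with no filter on low counts it passed (adjusted p = 0.0134, the lowest over its alternatives, which reached 1).

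Markers of other gut segments differed between the libraries without one common order. Apoa1, an apolipoprotein gene of proximal gut and liver, had 81.9 and 1.87 CPM in Kuiyangling libraries, 27.0 and 253 CPM in mesalazine libraries, 2.20 and 1.59 CPM in DSS model libraries, and 1.44 and 0.123 CPM in control libraries. It came from a list of hepatocyte markers, whose 9 tested genes had a median change of 0.03 in mesalazine against control, with 5 above 0 and 0 called. The 5 alpha-defensin genes of the list of Paneth cells, a cell type of the small intestine, were singled out after their values were seen and summed to 28 and 0 counts in Kuiyangling libraries, 10 and 126 counts in mesalazine libraries, 6 and 2 counts in DSS model libraries, and 0 and 0 counts in control libraries. The 2 libraries with the highest Reg4, mesalazine replicate 2 and Kuiyangling replicate 1, were also the 2 highest for both. The whole Paneth list did not share that order: its 11 measured genes summed to 256 and 205 CPM in Kuiyangling libraries, 624 and 247 CPM in mesalazine libraries, 395 and 337 CPM in DSS model libraries, and 518 and 683 CPM in control libraries. Of its 5 tested genes 1 was called in mesalazine against control, the matrilysin gene Mmp7, which was highest in mesalazine replicate 1 (44.7 CPM, and 9.46 CPM in replicate 2) and rose by 4.04 ± 0.70 (SE, edgeR, adjusted p = 0.0414). Genes called higher there made up 0.433% of all tested genes. Hoxb13, a gene of the distal colon, had 5.88 and 23.2 CPM in Kuiyangling libraries, 0.212 and 0.642 CPM in mesalazine libraries, 12.9 and 2.98 CPM in DSS model libraries, and 19.9 and 175 CPM in control libraries. It fell by 7.76 ± 1.35 in mesalazine against control (SE, edgeR, adjusted p = 0.0414). Hoxb13 was 1 of 7 tested genes of a list of colon position and the only one called there, beside 0.239% of all tested genes called lower. In that comparison 3 of the 7 had estimates above 0. The other genes of the list did not all share its order: Hoxb7 and Hoxc6 were highest in mesalazine replicate 1, and Hoxb6 and Hoxb8 in mesalazine replicate 2. The part of sampling position in the members' levels was not tested.

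Saa3, the serum amyloid A gene made by epithelium, macrophages and fat, had 105 and 43.7 CPM in Kuiyangling libraries, 421 and 101 CPM in mesalazine libraries, 83.7 and 128 CPM in DSS model libraries, and 9.81 and 5.92 CPM in control libraries. All 6 DSS libraries lay above both controls, and mesalazine replicate 1 stood above the other 5. Saa1, an acute-phase apolipoprotein gene, was already abundant in healthy mucosa, with 1640 and 1116 CPM in Kuiyangling libraries, 4389 and 1259 CPM in mesalazine libraries, 1372 and 1851 CPM in DSS model libraries, and 502 and 1678 CPM in control libraries. Control replicate 2 lay above 4 of the 6 DSS libraries. Against control, Saa1 had estimates of 0.34 ± 0.64 for Kuiyangling, 1.37 ± 0.65 for mesalazine and 0.56 ± 0.64 for the DSS model (SE, edgeR, adjusted p from 0.271 to 0.916).

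The balance of the 2 genes differed between libraries: the FPKM level of Saa1 over that of Saa3 was 8.03 and 13.2 in Kuiyangling libraries, 5.38 and 6.41 in mesalazine libraries, 8.46 and 7.44 in DSS model libraries, and 26.4 and 146 in control libraries. Saa2 had 0.818 to 3.82 CPM across the 8 libraries, with 13 to 54 counts each, and its estimates against control lay between -0.08 and 1.02. The Saa1 and Saa2 transcripts are 93.9% identical over 609 aligned columns and share 74 of the 560 runs of 50 bases of Saa1 (13.2%). The tables imply a length of 1029 bases for Saa1, whose GENCODE transcript has 609. How the authors' counting split reads between Saa1 and Saa2 was not stated, which leaves the level of each gene alone uncertain.

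Lcn2, the siderophore-binding lipocalin used as a faecal marker of colitis, had 9.10 and 3.12 CPM in Kuiyangling libraries, 58.4 and 3.97 CPM in mesalazine libraries, 6.98 and 14.2 CPM in DSS model libraries, and 0.644 and 0.247 CPM in control libraries. Groups given DSS did not overlap the controls, whose values rest on 13 and 4 counts. Its counts in the DSS model, summed and scaled in the same way, were 22.5 times those of control (exact 95% counting interval 13.8 to 39.0, counting error only).

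**Figure D2:**
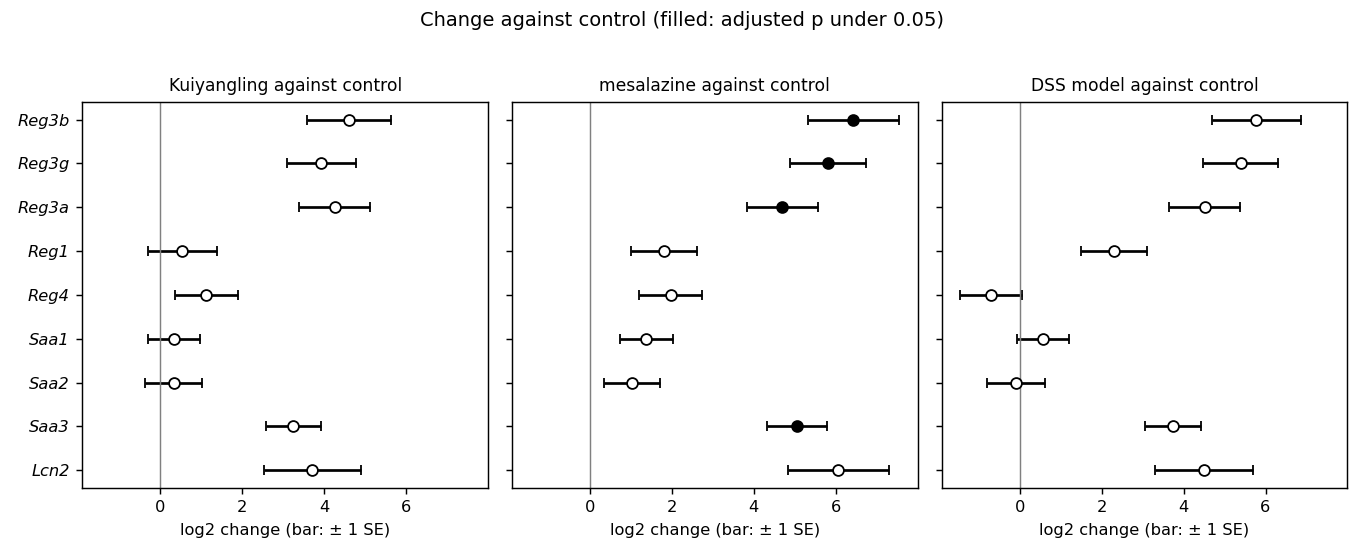
Log2 change with its SE (bars, ± 1 SE) of the 9 genes in Kuiyangling, mesalazine and DSS model mice against control, from 1 edgeR fit of the 8 libraries with 2 animals a group. Filled points passed an adjusted p under 0.05: Reg3a, Reg3b, Reg3g and Saa3 in mesalazine mice (0.0469, 0.0414, 0.0312 and 0.0268), and none in the other 2 panels.

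In the DSS model against control, taken alone, edgeR called 0 of 9 members at an adjusted p under 0.05, beside 0.247% of all tested genes (0.194% higher and 0.0523% lower). At an unadjusted p under 0.05 there were 6 members, beside 14.8% of all genes, and DESeq2 called 5 (Reg3a, Reg3b, Reg3g, Saa3 and Lcn2). The estimates were 5.77 ± 1.09 for Reg3b (adjusted p = 0.0741), 5.40 ± 0.91 for Reg3g (adjusted p = 0.0557), 4.52 ± 0.87 for Reg3a (adjusted p = 0.0782), 3.75 ± 0.69 for Saa3 (adjusted p = 0.0667) and 4.51 ± 1.20 for Lcn2 (adjusted p = 0.158). With libraries left out one at a time, the changes ran from 5.2 to 6.6 for Reg3b and 5.0 to 6.0 for Reg3g. They ran from 4.2 to 4.9 for Reg3a, 3.4 to 4.2 for Saa3 and 3.9 to 5.4 for Lcn2. Both DSS model libraries lay above both controls in 6 of 9 members, where 27.1% of all tested genes did, and 0 members lay below, where 26.3% did. The median change of the 9 was 3.75, against -0.04 over all tested genes.

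In Kuiyangling against control, edgeR called 0 of 9 members, beside 0.239% of all tested genes (0.187% higher and 0.0523% lower). At an unadjusted p under 0.05 there were 5, beside 10.3% of all genes, and DESeq2 called 4. Estimates were 4.60 ± 1.03 for Reg3b (adjusted p = 0.108), 3.93 ± 0.85 for Reg3g (adjusted p = 0.0961), 4.25 ± 0.87 for Reg3a (adjusted p = 0.0813), 3.24 ± 0.67 for Saa3 (adjusted p = 0.0861) and 3.71 ± 1.19 for Lcn2 (adjusted p = 0.279). Both Kuiyangling libraries lay above both controls in 5 of 9 members, as in 25.9% of all tested genes, and below both in 0, as in 23.2%. With libraries left out one at a time, the changes ran from 3.8 to 5.5 for Reg3b and 3.2 to 4.5 for Reg3g. They ran from 3.5 to 4.8 for Reg3a, 2.5 to 3.7 for Saa3 and 2.7 to 4.6 for Lcn2.

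In mesalazine against control, 4 of 9 members rose, beside 0.673% of all tested genes called (0.433% higher and 0.239% lower), and 7 had an unadjusted p under 0.05, beside 20.0%. Reg3b rose by 6.43 ± 1.12 (adjusted p = 0.0414), Reg3g by 5.82 ± 0.93 (adjusted p = 0.0312), Reg3a by 4.69 ± 0.87 (adjusted p = 0.0469) and Saa3 by 5.05 ± 0.73 (adjusted p = 0.0268), while Lcn2 had an estimate of 6.06 ± 1.23 that did not pass (adjusted p = 0.0661). These calls rest on single libraries. Without mesalazine replicate 1 or without control replicate 2, 0 members passed, and the changes without mesalazine replicate 1 were 3.92 for Reg3b, 3.78 for Reg3g, 3.26 for Reg3a and 3.68 for Saa3. The number of members that passed depended on the library left out, as did the number of all genes that passed. With libraries left out one at a time, the changes ran from 3.9 to 7.3 for Reg3b and 3.8 to 6.6 for Reg3g. They ran from 3.3 to 5.4 for Reg3a, 3.7 to 5.7 for Saa3 and 3.1 to 7.0 for Lcn2. Both mesalazine libraries lay above both controls in 6 of 9 members, where 23.6% of all tested genes did, and below both in 0, where 22.1% did. The 3 comparisons with control share the same control libraries.

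In 8 of 9 members the animals of the mesalazine group differed more than those of any other group. The CPM of replicate 1 over that of replicate 2 was 14.7 for Lcn2, 10.4 for Reg3b, 7.22 for Reg3g, 4.41 for Reg3a, 4.15 for Saa3, 3.49 for Saa1, 3.45 for Saa2 and 2.87 for Reg1, but 0.149 for Reg4. On log2 CPM (prior count 2), 5 of 9 members were at least 4-fold higher in replicate 1 and 1 was at least 4-fold lower, where 0.972% and 1.03% of all tested genes were. On the same scale 0 members differed 4-fold between the animals of another group, although the CPM of Reg1, at 11 and 2 counts, differed 4.42-fold between the controls. In these groups 0.247% of genes were 4-fold higher and 0.247% lower in replicate 1 of Kuiyangling, 0.194% and 0.717% in that of the DSS model, and 0.546% and 1.88% in that of control. These groups had a largest absolute log2 difference of 1.53 in Kuiyangling, 1.01 in the DSS model and 1.74 in control. The summed CPM of the 9 genes was 13939 and 6083 in Kuiyangling libraries, 59866 and 7294 in mesalazine libraries, 23830 and 19216 in DSS model libraries, and 1085 and 1962 in control libraries. Mesalazine replicate 1 was also the library with the highest ribosomal share, 12.7% of its counts, and the part of that in the difference was not tested.

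**Figure D3:**
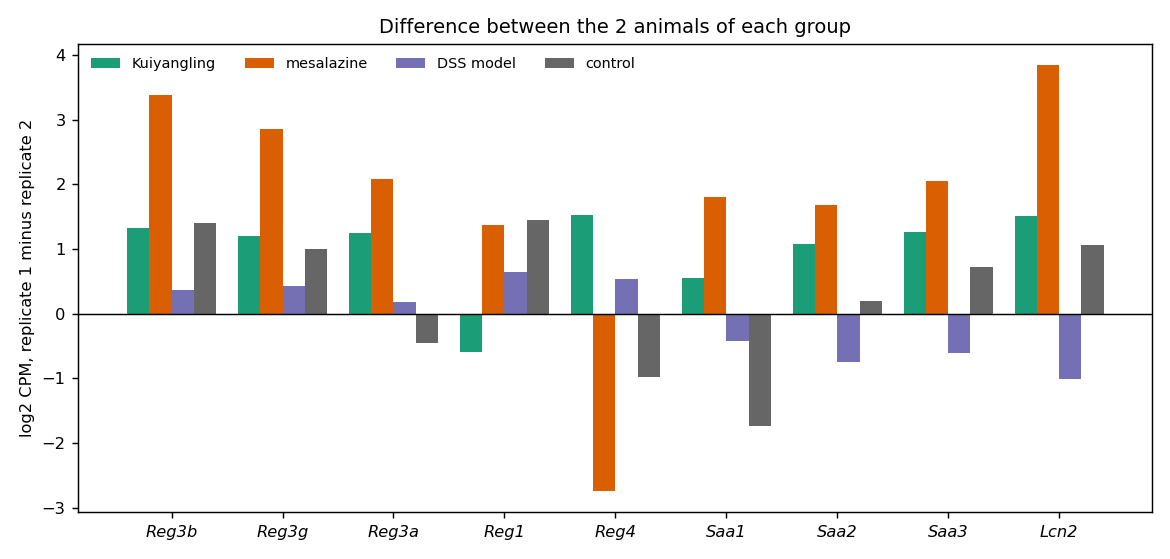
Log2 CPM (prior count 2) of replicate 1 minus that of replicate 2 for each gene, with bars for the Kuiyangling, mesalazine, DSS model and control groups from left to right. The mesalazine bars reach 3.84 for Lcn2 and 3.38 for Reg3b and turn to -2.74 for Reg4, and no bar of another group exceeds 1.74 in size.

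**Figure D4:**
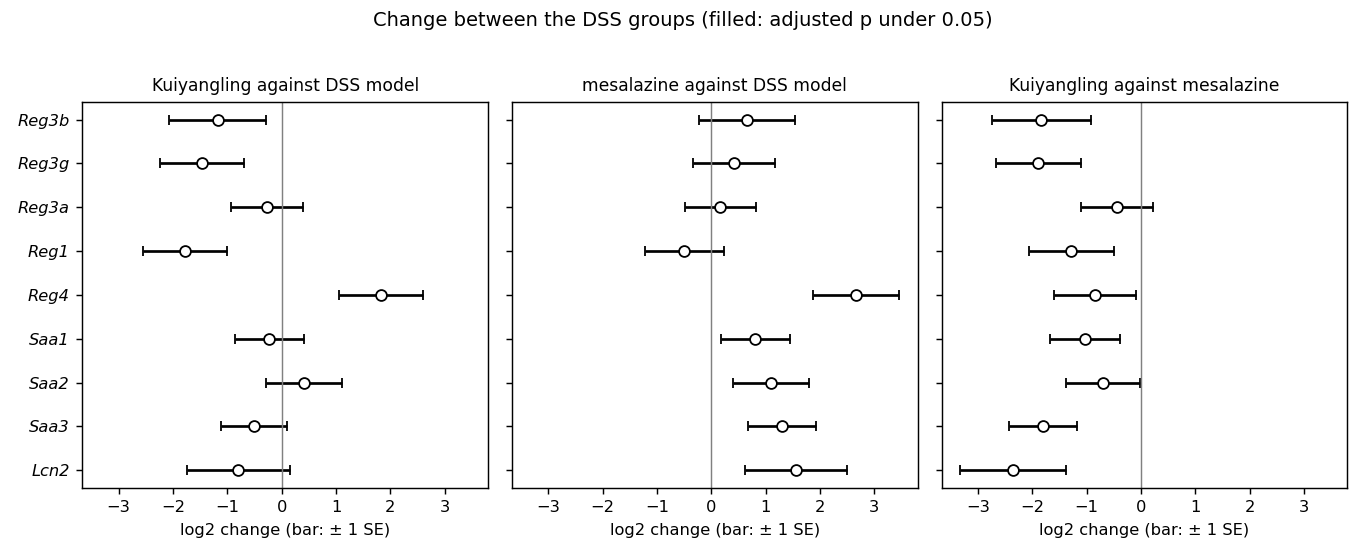
Log2 change with its SE (bars, ± 1 SE) of the 9 genes for Kuiyangling against the DSS model, mesalazine against the DSS model and Kuiyangling against mesalazine, from the same fit. No point is filled: no member passed an adjusted p under 0.05. In mesalazine against the DSS model the SE exceeded the estimate for Reg3b (0.66 ± 0.89) and was smaller than it for Reg4 (2.66 ± 0.80).

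Neither treatment gave a called difference from the DSS model in any member. In Kuiyangling against the DSS model, edgeR and DESeq2 called 0 of 9 members, beside 0% of all tested genes by edgeR, and 2 members had an unadjusted p under 0.05, beside 3.56%. The estimate for Reg3b was -1.18 ± 0.90, for Reg3g -1.47 ± 0.77 and for Reg1 -1.78 ± 0.77 (SE, edgeR, adjusted p = 0.996 each). Both Kuiyangling libraries lay below both DSS model libraries in these 3 genes, as in 21.1% of all tested genes, and above them in Reg4, as in 21.9%. Saa3 (-0.51 ± 0.61), Lcn2 (-0.80 ± 0.95) and Reg3a (-0.27 ± 0.66) overlapped, with Kuiyangling replicate 1 at or above a DSS model library in each.

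In mesalazine against the DSS model, edgeR and DESeq2 called 0 of 9 members, beside 0% of all tested genes by edgeR, and 1 had an unadjusted p under 0.05 (Reg4), beside 5.49%. The estimates were 0.66 ± 0.89 for Reg3b, 0.42 ± 0.76 for Reg3g, 1.30 ± 0.62 for Saa3 and 1.56 ± 0.94 for Lcn2 (SE, edgeR, adjusted p from 0.914 to 0.9999). Their direction rests on 1 animal: without mesalazine replicate 1 the changes were -1.87 for Reg3b, -1.63 for Reg3g, -0.076 for Saa3 and -1.43 for Lcn2. The mesalazine libraries lay on both sides of the DSS model libraries in Reg3a, Reg3b, Reg3g and Lcn2. Only Reg4 was above both DSS model libraries in both mesalazine libraries, as were 14.0% of all tested genes, and 0 were below both, as were 13.8%.

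In Kuiyangling against mesalazine, all 9 estimates were below 0, from -0.44 ± 0.66 for Reg3a to -2.35 ± 0.97 for Lcn2, and edgeR and DESeq2 called 0 (edgeR adjusted p = 0.999 for each), beside 0% of all tested genes by edgeR. There were 3 members with an unadjusted p under 0.05 (Reg3g, Saa3 and Lcn2), beside 1.90% of all genes. The groups overlapped in 8 of 9 members, in each of which Kuiyangling replicate 1 lay above the lower of the 2 mesalazine libraries. Reg1 alone was lower in both, as in 11.6% of all tested genes, and 0 were higher in both, as in 10.6%. Without mesalazine replicate 1 the estimates for Reg3b and Lcn2 turned to 0.68 and 0.61. With 2 animals a group and SEs from 0.63 to 0.97, the comparison does not show that the treatments acted alike.

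Among the signals known to induce these genes, Il1b and Il33 passed the test in the DSS model against control, and Il1a passed over the mean of the DSS groups. Of 23 tested genes of IL-22, IL-17, IL-6 and IL-1 signalling, 2 were called in the DSS model against control, both higher, beside 0.194% of all tested genes called higher: Il1b, the inflammasome-processed cytokine, with 13.7 and 36.1 CPM in DSS model libraries and 0.595 and 1.17 CPM in control libraries (4.83 ± 0.61, adjusted p = 0.0168), and Il33, an epithelial and stromal alarmin (5.50 ± 0.79, adjusted p = 0.0240, with 2 and 0 counts in the controls). Il33 was also called higher in Kuiyangling (5.51 ± 0.79, adjusted p = 0.0313) and mesalazine (5.14 ± 0.79, adjusted p = 0.0312) against control. Over the mean of the 3 DSS groups, edgeR called 3 of the 23 higher, beside 0.844% of all tested genes. These were Il33 (5.38 ± 0.74, adjusted p = 0.0132), Il1b (3.35 ± 0.54, adjusted p = 0.0175) and Il1a (4.14 ± 0.87, adjusted p = 0.0454). Il1a had 3 and 0 counts in the controls. Il22 itself had 0 or 1 counts in every library, too few to compare. Its receptor gene Il22ra1 had 77.1 and 74.7 CPM in Kuiyangling libraries, 50.0 and 87.0 CPM in mesalazine libraries, 73.2 and 66.8 CPM in DSS model libraries, and 93.3 and 158 CPM in control libraries.

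Of 27 signal transducers and transcription regulators, 0 were called by edgeR in any comparison. The one with the smallest p in the DSS model against control, Socs3, a STAT3 target that damps cytokine signalling, had 43.5 and 34.1 CPM in Kuiyangling libraries, 59.5 and 37.1 CPM in mesalazine libraries, 123 and 102 CPM in DSS model libraries, and 14.8 and 31.3 CPM in control libraries (2.29 ± 0.40 for the DSS model against control, adjusted p = 0.0603). Both DSS model libraries lay above the other 6. Of 12 tested other acute-phase genes, 1 was called in the DSS model and Kuiyangling against control, the metalloreductase gene Steap4 (2.54 ± 0.34, adjusted p = 0.0180, and 2.63 ± 0.34, adjusted p = 0.0292). Genes called higher there made up 0.194% and 0.187% of all tested genes. Of 25 tested other epithelial antimicrobial genes, 1 was called in each group against control and it was lower: Mptx1, a mucosal pentraxin gene, had 2.35 and 1.97 CPM in Kuiyangling libraries, 0.637 and 1.17 CPM in mesalazine libraries, 2.77 and 3.65 CPM in DSS model libraries, and 134 and 2151 CPM in control libraries. Genes called lower made up 0.0523% of all tested genes in Kuiyangling, 0.239% in mesalazine and 0.0523% in the DSS model against control. Over the mean of the 3 DSS groups, edgeR called 3 of the 25, all lower, beside 1.35% of all tested genes called lower. These were Mptx1 (-9.26 ± 0.75, adjusted p = 0.00293), Ang4 (-3.79 ± 0.61, adjusted p = 0.0173) and Wfdc2 (-1.77 ± 0.34, adjusted p = 0.0324). Of 13 bacterial sensing genes and 9 genes of receptors and partners of the encoded proteins, 0 were called in any comparison by edgeR.

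Neutrophils, which infiltrate the inflamed colon, also carry LCN2 protein. Of 12 tested neutrophil markers, 4 were called higher in the DSS model, 1 in Kuiyangling and 3 in mesalazine against control, beside 0.194%, 0.187% and 0.433% of all tested genes called higher. S100a9, a calprotectin subunit gene, had 3.65 and 2.23 CPM in Kuiyangling libraries, 10.9 and 2.86 CPM in mesalazine libraries, 10.9 and 21.0 CPM in DSS model libraries, and 0 counts in both controls. S100a8, its partner, had 0 and 1 counts in the controls and was called in all 3 (6.16 ± 0.97 in Kuiyangling, adjusted p = 0.0429, 7.51 ± 0.93 in mesalazine, adjusted p = 0.0216, and 8.64 ± 0.92 in the DSS model, adjusted p = 0.00611). All 16 markers summed to 215 and 139 CPM in Kuiyangling libraries, 882 and 127 CPM in mesalazine libraries, 176 and 237 CPM in DSS model libraries, and 12.0 and 141 CPM in control libraries, and Ly6g alone had 843 CPM in mesalazine replicate 1 and 137 CPM in control replicate 2. The other 15, with Ly6g left out after the values were seen, summed to 14.7 and 9.40 CPM in Kuiyangling libraries, 38.5 and 13.1 CPM in mesalazine libraries, 41.3 and 69.6 CPM in DSS model libraries, and 1.49 and 3.27 CPM in control libraries.

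Of the 16 neutrophil markers, 11 were highest in DSS model replicate 2 and 4 (Ly6g, Ltf, Il1r2 and Ngp) in mesalazine replicate 1, the library that was highest for 7 of 9 members. In mesalazine replicate 1, Reg3b, Saa3 and Lcn2 were each at their highest, Lcn2 at 58.4 CPM against at most 14.2 CPM elsewhere, while the cytokine genes Il1b (7.50 CPM) and Tnf (3.61 CPM) lay below both DSS model libraries. Monocyte and macrophage markers summed to 110 and 95.5 CPM in Kuiyangling libraries, 140 and 73.8 CPM in mesalazine libraries, 92.5 and 118 CPM in DSS model libraries, and 70.8 and 145 CPM in control libraries, and 0 of 15 were called by edgeR in any comparison. The part of cell makeup in the members' levels was not tested.

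**Figure D5:**
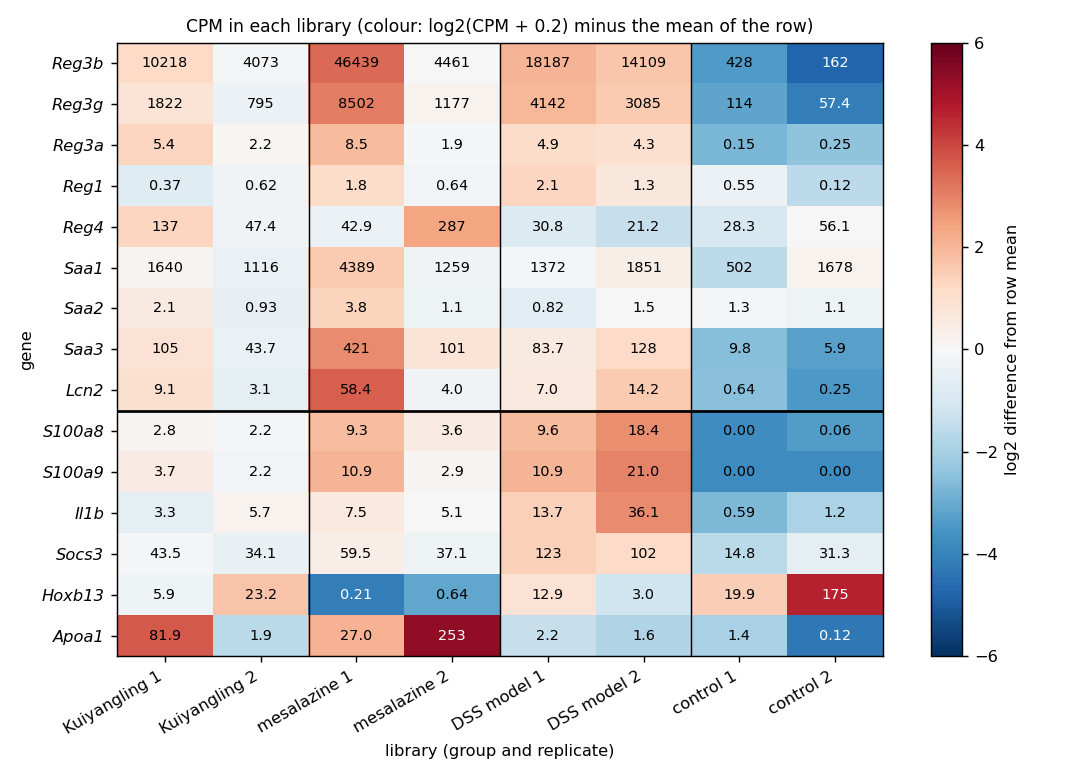
CPM (numbers) in each library for the 9 genes, above the line, and for 6 other genes, below it, with Kuiyangling, mesalazine, DSS model and control libraries from left to right and colour for log2(CPM + 0.2) minus the mean of the row. Mesalazine replicate 1 holds the highest value of Reg3b, Reg3g, Saa3 and Lcn2, DSS model replicate 2 of S100a8, S100a9 and Il1b, and Reg4 and Apoa1 peak in mesalazine replicate 2.

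The 3 REG and SAA genes outside the set were near the limit of detection. Reg3d had 6 and 11 counts in Kuiyangling libraries, 13 and 2 counts in mesalazine libraries, 17 and 5 counts in DSS model libraries, and 0 counts in both controls. It was tested, and edgeR called it in no comparison. With the control group set to a floor of 3 counts, its scaled counts were 5.82 times that floor in Kuiyangling. They were 5.82 times the floor in mesalazine and 8.62 times in the DSS model. The counts of the DSS groups were taken without their error, and 1 mesalazine library lay under 3 counts, so these ratios are not lower bounds. Reg2 had 2 to 4 counts and Saa4 0 to 4 counts in every library, too few to compare.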

How the data were processed

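The deposited tables hold whole-number counts per gene and FPKM for 8 libraries. Per the labels' protocols, RNA (mirVana kit, integrity number at least 7) went into TruSeq stranded mRNA libraries. Trimmomatic and HISAT2 are named in the submitters' processing notes. Build, annotation, counter and strand setting are not given in the sources used here. In the deposited FPKM the authors scaled each gene by library total and by a length that was the same in all libraries (checked, largest relative deviation 5.33e-15). The header of mesalazine replicate 2 is spelled differently and was matched by its number.

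Counts were tested with edgeR 4.0.16 in R 4.3.3 (filterByExpr by group, TMM, quasi-likelihood F tests, 1 fit of 8 libraries with a mean per group, 7 comparisons, Benjamini-Hochberg adjusted p under 0.05 over 13381 genes). The fit had a common coefficient of variation of 0.287 with 6.02 prior degrees of freedom. Every ± beside a log2 change is an approximate SE. It was derived as the size of the change divided by the square root of its F statistic. It is therefore tied to the unadjusted p of the same test and is not a separate measure of spread. Each group has n = 2, and nothing beyond the labels' separate animals describes their independence. The script was tested on simulated data. Alternatives were DESeq2 1.42.0, limma 3.58.1 on log2 FPKM, RLE scaling, no filter, fewer libraries, a replicate block, a gene length offset and leaving out each library. The members and the gene lists were chosen with earlier results of these data known. Of each list, up to 3 called genes or the one with the smallest p were named, and other genes were named after their values were seen. Sequences came from RefSeq and GENCODE on GRCm38, which may not be the authors' build, and no file coordinate was used. Some genes that the naming rule would list are not reported here.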

Additional observations from a re-analysis of the deposited data

How the results depend on the processing

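The number of called members depended on the setting. In the DSS model against control, where 0 of 9 members were called, DESeq2, no filter on low counts and a fit of only the libraries compared called 5 each, a replicate block 4, a gene length offset 2 and limma on log2(FPKM + 0.1) 1, and leaving out libraries gave 0 to 5. In Kuiyangling against control (0 called), DESeq2 called 4, no filter 5, the replicate block 4 and the length offset 1, with 0 to 4 when libraries were left out. In mesalazine against control (4 called), the length offset and limma on log2(FPKM + 1) called 2 each and limma with no filter 0, with 0 to 6 when libraries were left out. Over the mean of the DSS groups (4 called), limma with no filter called 0, with 0 to 5 when libraries were left out. In mesalazine against the DSS model (0 called), no filter called 1. Correlations of the replicate deviations between groups, over all tested genes, ran from -0.311 to 0.162, which does not settle whether the replicate numbers paired animals. Replicate 1 was the higher in 8 of 9 members in Kuiyangling, 8 in mesalazine, 5 in the DSS model and 6 in control. Whether a shared factor lay behind this was not tested.

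Genes called over the whole table moved as well. In the DSS model against control (33 called) DESeq2 gave 463, no filter 487, the replicate block 50, limma on log2(FPKM + 1) 15, limma with no filter 2, and left-out libraries 1 to 159. In Kuiyangling against control (32 called) the values were 362, 451, 65, 2 and 1 in the same order, 19 with only the libraries compared, 19 with limma on log2(FPKM + 0.1), and 1 to 171. In mesalazine against control (90 called) DESeq2 gave 1008, no filter 1090, only the libraries compared 315, the length offset 37, limma 36, 39 and, with no filter, 4, and left-out libraries 1 to 2717. Over the mean of the DSS groups (293 called) DESeq2 gave 991, no filter 1169, limma 89, 70 and 23, and left-out libraries 3 to 2249. Kuiyangling against the DSS model (0 called) gave 13, 11 and 21 with DESeq2, no filter and only the libraries compared, mesalazine against the DSS model (0 called) 84 and 104 with DESeq2 and no filter, and Kuiyangling against mesalazine (0 called) 3 with no filter. The causes were not tested.

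Signs turned only in changes that were not called. In mesalazine against the DSS model, the replicate block, length offset and the 3 limma settings gave -0.099, -0.24, -0.14, -0.21 and -0.14 for Reg3a and -0.059, -0.14, -0.21, -0.21 and -0.21 for Reg3g, and the block and limma settings gave -0.017, -0.19, -0.19 and -0.19 for Reg3b. With the length offset, Saa1 in Kuiyangling against the DSS model was 0.033, Reg3a and Saa2 in Kuiyangling against mesalazine were 0.21 and 0.051, and Saa2 was -0.12, -0.18 and -0.39 in Kuiyangling, mesalazine and the mean of the DSS groups against control. Saa2 was 0.0057 in the DSS model against control under the block. With libraries left out one at a time, signs also turned in these ranges. In mesalazine against the DSS model they were -1.43 to 0.081 for Reg1, -1.27 to 0.88 for Reg3a, -1.87 to 1.52 for Reg3b, -1.63 to 1.23 for Reg3g, -0.37 to 1.44 for Saa1, -0.046 to 1.74 for Saa2, -0.076 to 1.99 for Saa3 and -1.43 to 2.46 for Lcn2. In Kuiyangling against the DSS model they were -1.07 to 0.24 for Reg3a, -0.56 to 0.024 for Saa1 and -0.31 to 0.88 for Saa2. In Kuiyangling against mesalazine they were -1.25 to 0.99 for Reg3a, -2.70 to 0.68 for Reg3b, -2.70 to 0.15 for Reg3g, -1.82 to 1.10 for Reg4, -1.67 to 0.13 for Saa1, -1.42 to 0.44 for Saa2 and -3.35 to 0.61 for Lcn2. Against control they were -0.12 to 1.95 for Reg1, -0.29 to 1.46 for Saa1 and -0.38 to 0.81 for Saa2 in Kuiyangling, -0.11 to 1.66 for Saa2 in mesalazine, and -0.064 to 1.68 for Saa1 and -0.55 to 0.28 for Saa2 in the DSS model. Where 1 library was left of a group, it was assumed to vary like the other groups. Of the members' log2 changes under settings other than leaving out a library, 488 kept their direction and their side of the threshold. A further 45 came to pass it, 13 no longer passed and 21 changed sign. These totals do not include the fits with a library left out, where 27 changed sign. The control levels of Reg1, Reg3a and Lcn2 rest on 2 to 13 counts a library, which limits the precision of their changes.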

Other observations

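For each member, the genes outside the set with the most similar profile were ranked by Pearson's r of log2 CPM over the 8 libraries. Each is the highest r among all tested genes, and with 8 libraries high values can arise from that choice alone. For Reg3a, Reg3b, Reg3g, Saa3 and Lcn2 the step between control and DSS mice also enters r. These values are therefore a description. Reg3b was nearest to Cd151 (r = 0.989), Lgmn (0.987) and Defb37 (0.984), and Reg3g to Lgmn (0.988) and Prss27 (0.985). Reg3a was nearest to Msr1 (0.993), Saa3 to Prap1 (0.994) and Lcn2 to Ndufb4 (0.993). Saa1 was nearest to Hpdl (0.986), Saa2 to Cntd1 (0.979) and Reg1 to Mrpl39 (0.981). Reg4 was nearest to Iffo1 (0.968) and AW146154 (0.952).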
